A study of Drosophila melanogaster with 12 samples.

Results

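Enteroendocrine cells are the hormone-producing cells of the gut, and 10 genes that define their fate and their products were followed in sorted enteroblasts of the adult Drosophila midgut. The genes were taken by symbol from the 8802 rows of the count table: the fate factor pros, the peptide hormone genes Tk, NPF, AstA, AstC, Mip, Dh31, CCHa1 and CCHa2, and the peptide-processing enzyme gene amon. All 10 had a row, and 7 of them passed a filter on low counts and were tested (pros, Tk, NPF, AstC, CCHa1, CCHa2 and amon). The other 3 (AstA, Dh31 and Mip) are given as counts and in a fit without the filter.

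The 12 RNA libraries formed 4 groups of 3 replicates made on different days. All flies were virgin females 9 days old, kept 3 days at room temperature and then 6 days at 29 °C, and all carried esg-Gal4, UAS-GFP and tubGal80TS. This system drives UAS transgenes in cells that express escargot, which in the gut are stem cells as well as enteroblasts, once the heat blocks Gal80. Controls came from a cross to Canton-S, a wild-type strain, and carried no further transgene. The second group carried UAS-SvbRNAi, a hairpin against the transcription factor Shavenbaby (svb, encoded by ovo). The SvbACT group carried UAS-SvbACT::GFP, a constitutive activator form, and the SvbREP group carried UAS-Svb3Kmut::GFP, a mutant form that stays a repressor and is labelled SvbRep. Cells of the posterior midgut (regions R3 to R5) were sorted for high GFP and large size, from batches of pooled flies, so each value is a mean over a sorted population. In such bulk samples, fewer cells of a type and less RNA per cell cannot be told apart. Control was the only group without a UAS transgene besides GFP, so differences from it cannot be told apart from effects of strain background.

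Enteroendocrine cells and enterocytes both descend from intestinal stem cells. Enteroblasts with high Notch signalling become enterocytes, and the secretory lineage switches on Prospero, the homeodomain protein encoded by pros. Mature enteroendocrine cells load peptide hormones into dense core vesicles after convertases such as Amontillado, the fly member of the PC2 family, have cut the precursors. In the adult midgut they fall largely into a class that makes allatostatin C and a class that makes tachykinin, the latter often together with diuretic hormone 31 or neuropeptide F.

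Library totals ran from 2186283 to 7444253 counts, so that 3 counts were worth 0.379 to 1.40 CPM, the unit of depth-scaled counts used below. SvbREP replicate 3 was the shallowest and had no counts for 1013 genes. SvbACT replicates 2 and 3 had none for 930 and 895 genes, at totals of 4279512 and 5615977 counts. SvbACT replicate 1 (6153179 counts) had none for 298 genes and control replicate 3 (3853072 counts) for 481. Zeros in SvbACT replicates 2 and 3 are thus less telling than their depth implies. Counts of ovo did not fall under the knockdown label, at 9, 117 and 1 in control and 195, 126 and 97 in those libraries. They are therefore called knockdown-labelled throughout. Reads of the hairpin, if counted as ovo, cannot be told apart from those of the gene's own transcript. The counts thus do not show whether that transcript fell. The 6 progenitor markers with a row (klu, E(spl)mbeta-HLH, Sox21a, zfh2, Sox100B and N) were detected in each group, while esg, the driver gene, was not analysed here. Their summed level was 5137 to 6106 CPM in control, 3211 to 3901 in the knockdown-labelled group, 5555 to 6459 in SvbACT and 3679 to 3972 in SvbREP. The largest part was zfh2, with means of 2718, 1171, 3234 and 1366 CPM in that order. From control to the knockdown-labelled group, means of klu (785.5 to 401 CPM) and Sox100B (653 to 331) also fell. Those of N (799 to 921.5), Sox21a (323 to 358) and E(spl)mbeta-HLH (411.5 to 446.5) did not. The 13 enterocyte markers summed to 1324 to 1825 CPM in control, 1363 to 1538 in the knockdown-labelled group, 825 to 1525 in SvbACT and 1570 to 2304 in SvbREP. Most of this sum came from Vha16-1 and Myo31DF. From control to the knockdown-labelled group, Vha16-1 went from 956 ± 346 to 1177 ± 133 CPM and Myo31DF from 550 ± 70.6 to 241 ± 23.0 CPM (SD, n = 3 each). Among the digestive enzyme genes of this list, group means ranged from 0, for epsilonTry, thetaTry and Jon99Ci in SvbREP among others, to 38.4 ± 40.2 CPM for Mal-A1 in SvbACT (SD, n = 3). The 5 neuronal markers summed to 126 to 179 CPM in control, 141 to 195 in the knockdown-labelled group, 147 to 191 in SvbACT and 62.1 to 125 in SvbREP, most of it from elav. The 9 visceral muscle markers summed to 31.4 to 79.7 CPM in control, highest in replicate 2, 14.3 to 20.7 in the knockdown-labelled group, 30.6 to 40.7 in SvbACT and 17.5 to 28.4 in SvbREP. Of the 2 hemocyte markers with a row, Hml was at 0 in all libraries, and srp was at 20.8 to 38.7 CPM in control, 16.1 to 38.4 in the knockdown-labelled group, 17.2 to 29.9 in SvbACT and 10.3 to 19.3 in SvbREP. These lists moved between groups, and their part in the results on the 10 genes was not tested.

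**Figure D1:**
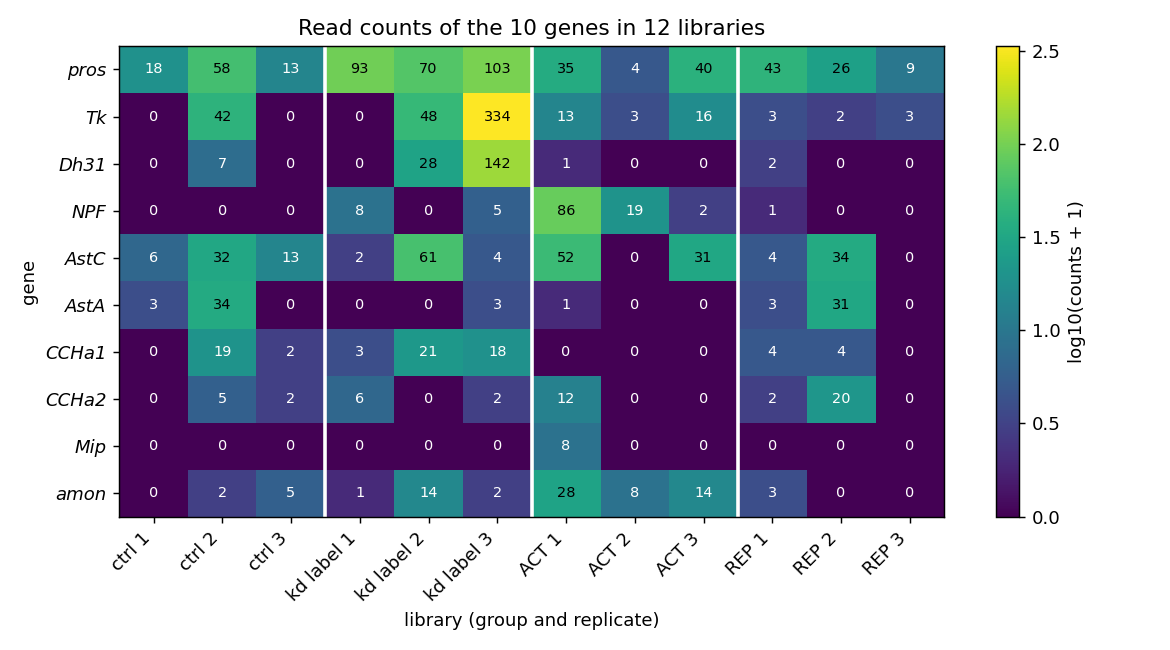
Deposited read counts of the 10 genes (rows) in the 12 libraries (columns, white lines between groups), coloured by log10(counts + 1) with the count printed in each cell. pros was counted in all libraries, whereas the peptide genes were at 0 in many and high in a few, up to 334 counts of Tk in knockdown-labelled replicate 3.

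The fate factor pros (FBgn0004595, chromosome 3R from 11328480 to 11407627, plus strand, dm6 coordinates) was the only member with more than 3 counts in all 12 libraries. It had 18, 58 and 13 counts in control, 93, 70 and 103 in the knockdown-labelled libraries, 35, 4 and 40 in SvbACT and 43, 26 and 9 in SvbREP. Scaled for depth, each knockdown-labelled library (11.5 to 29.1 CPM) lay above each of the 9 other libraries (0.95 to 8.10 CPM). The other 3 groups overlapped one another.

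Mean pros levels were 5.41 ± 2.37 CPM in control, 19.0 ± 9.13 in the knockdown-labelled group, 4.77 ± 3.43 in SvbACT and 4.67 ± 1.67 in SvbREP (SD, n = 3 each). The fitted log2 difference between the knockdown-labelled group and control was 1.78 ± 0.61 (SE), which missed the threshold of 0.05 over all 8069 tested genes (adjusted p 0.0914, edgeR's quasi-likelihood test). The call depended on the method. DESeq2's Wald test gave an adjusted p of 0.0353 and a fit of only these 6 libraries gave 0.012, and the authors' deposited table also calls pros higher here, while the range over all alternatives was 0.012 to 0.356 and leaving out any of the 6 replicates gave no call. Ranges that did not overlap in this direction were found for 13.9% of tested genes. Against the knockdown-labelled group, the log2 difference of pros was -1.96 ± 0.62 for SvbACT, with an adjusted p of 0.0607, and -2.0 ± 0.62 for SvbREP, with 0.0558, so neither passed. Ranges lay apart in this direction for 13.9% and 13.6% of tested genes. With the replicate number as a block, both were under the threshold (adjusted p 0.0473 and 0.047), and DESeq2 gave 0.0169 and 0.0168. The authors' deposited table calls pros lower in SvbACT than in the knockdown-labelled group and does not compare SvbREP with that group. Between SvbACT and control and between SvbREP and control the log2 differences of -0.18 ± 0.62 and -0.22 ± 0.62 were smaller than their errors. The exons of pros share 72 bases with lncRNA:CR46008 on the other strand, and the use of strand in counting is not given in the sources used here.

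**Figure D2:**
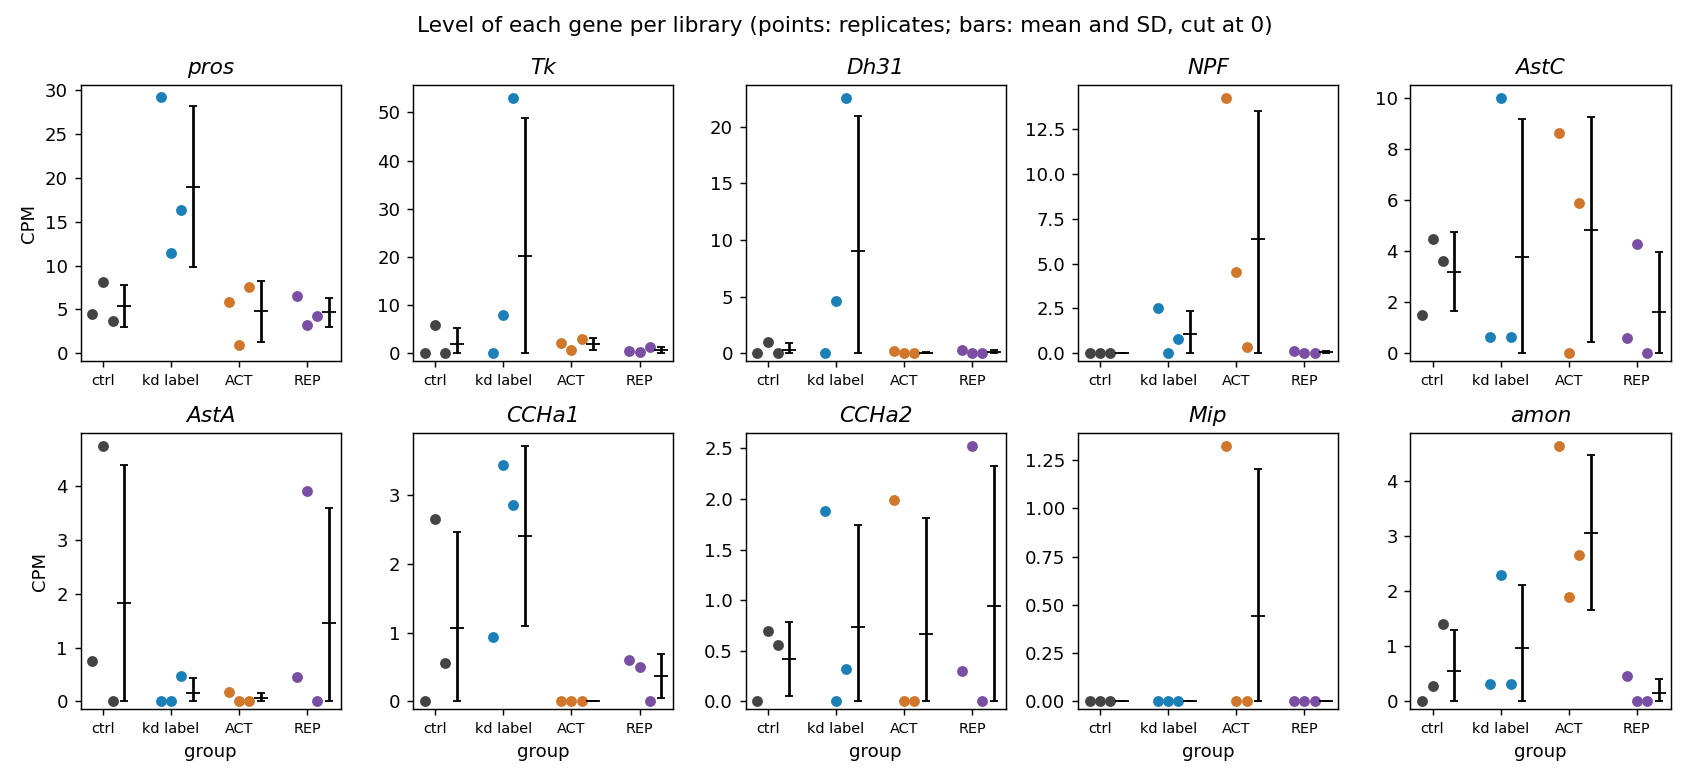
Level of each of the 10 genes in CPM (y axis, linear, a scale for each gene) by group (x axis), with points for the 3 replicates and a bar for the mean and SD, cut at 0. The 3 knockdown-labelled points of pros lie above the other 9, and the means of Tk, Dh31, AstA and Mip are carried by 1 or 2 libraries.

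Counts of Tk, NPF, Dh31 and Mip were concentrated in single libraries, which held 71.1% (NPF) to 100% (Mip) of them. For AstC, CCHa1, CCHa2 and AstA the library with most counts held 25.5%, 29.6%, 40.8% and 45.3%. Each peptide gene was at 0 in 3 to 11 libraries except AstC, which was at 0 in 2. The 8 peptide genes together had 9, 139 and 17 counts in the control replicates, 19, 158 and 508 in the knockdown-labelled replicates, 173, 22 and 49 in SvbACT and 19, 91 and 3 in SvbREP. Their summed level was 8.80 ± 9.27 CPM in control, 37.5 ± 38.7 in the knockdown-labelled group, 14.4 ± 12.5 in SvbACT and 5.26 ± 5.45 in SvbREP (SD, n = 3 each). All 4 groups overlapped, and in control, the knockdown-labelled group and SvbREP the SD was as large as the mean. Knockdown-labelled replicate 3 reached 80.7 CPM, and knockdown-labelled replicate 1 only 5.96 CPM.

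The make-up of this signal also differed between libraries. Tk, NPF and Dh31 supplied 481 of the 508 peptide counts in knockdown-labelled replicate 3, a share of 94.7% (95% exact binomial interval 92.4 to 96.5%). In SvbREP replicate 2 they supplied 2 of 91 counts, or 2.20% (0.267 to 7.72%), and AstC, AstA and CCHa2 led with 34, 31 and 20 counts. In control replicate 2 the share was 35.3% (27.3 to 43.8%), in knockdown-labelled replicate 2 it was 48.1% (40.1 to 56.2%) and in SvbACT replicate 1 it was 57.8% (50.1 to 65.3%). The libraries with many peptide counts did not carry a common profile, also within a group. Reads carried no molecular identifiers, so these intervals cover counting error only.

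**Figure D3:**
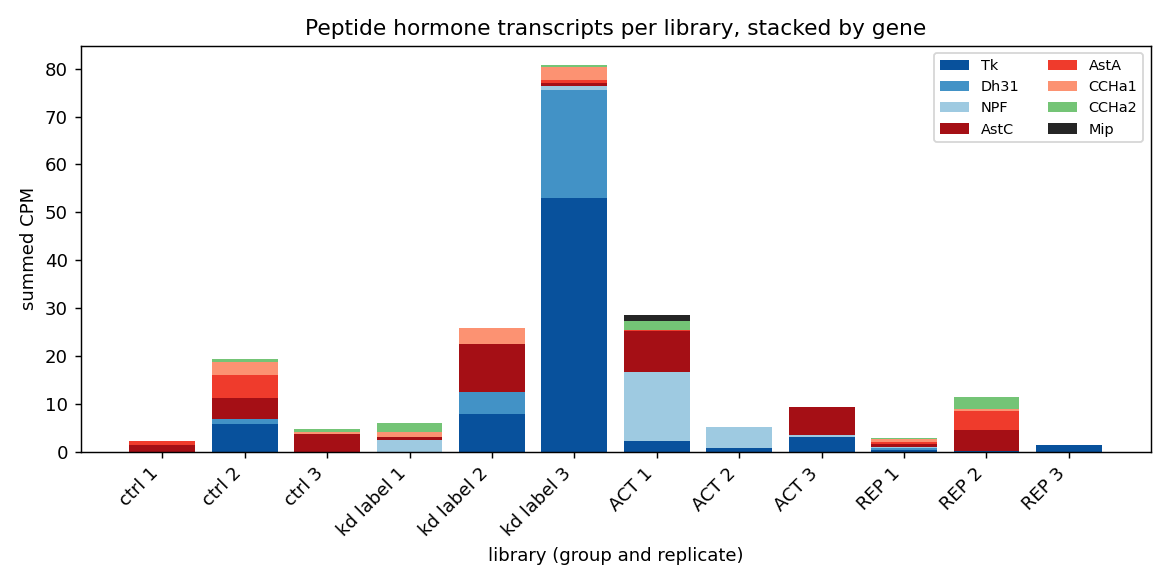
Summed level of the 8 peptide hormone genes in CPM (y axis) in each library (x axis), stacked by gene with Tk, Dh31 and NPF in blue and AstC, AstA and CCHa1 in red. Knockdown-labelled replicate 3 reaches 80.7 CPM, mostly Tk and Dh31, while SvbACT replicate 1 is led by NPF and SvbREP replicate 2 by AstC and AstA.

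Tk (FBgn0037976, 3R from 11994175 to 12005473, minus strand) encodes the precursor of the tachykinins, gut hormones known in flies to restrain lipid production by enterocytes. It had 0, 42 and 0 counts in control, 0, 48 and 334 in the knockdown-labelled libraries, 13, 3 and 16 in SvbACT and 3, 2 and 3 in SvbREP. A single library, knockdown-labelled replicate 3, held 72.0% of all 464 Tk counts (95% exact interval 67.7 to 76.0%). All groups overlapped. The mean of 20.3 ± 28.6 CPM in the knockdown-labelled group stood against 1.96 ± 3.39 in control (SD, n = 3 each), and none of the 6 comparisons passed the threshold for Tk. The smallest adjusted p was 0.119, for SvbREP against the knockdown-labelled group, with a log2 difference of -5.17 ± 1.85. It shrank to -2.71 (adjusted p 0.512) without knockdown-labelled replicate 3, and passed (0.0436) only without knockdown-labelled replicate 1, the library with no Tk counts.

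Dh31 (FBgn0032048, 2L from 8491868 to 8506845, minus strand), which encodes a peptide of the calcitonin family known to stimulate gut contractions, was also highest in knockdown-labelled replicate 3. It had 0, 28 and 142 counts there, 0, 7 and 0 in control, 1, 0 and 0 in SvbACT and 2, 0 and 0 in SvbREP. The library with most counts held 78.9% of the total (95% exact interval 72.2 to 84.6%). Dh31 was left out by the filter. Without the filter its log2 difference from the knockdown-labelled group passed for SvbACT (-6.76 ± 1.81, adjusted p 0.0266) and for SvbREP (-6.02 ± 1.72, adjusted p 0.0371), while the difference between the knockdown-labelled group and control gave 0.0833, and the authors' deposited table calls it lower in SvbACT than in the knockdown-labelled group. Summed over libraries, 170 counts against 1 in SvbACT gave a ratio of 169 after scaling for depth (95% counting interval 30 to 6731), which leaves out the spread between replicates. Since knockdown-labelled replicate 1 was at 0, the groups overlapped.

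NPF (FBgn0027109, 3R from 16609220 to 16611325, plus strand) encodes neuropeptide F, a relative of vertebrate neuropeptide Y, and was the member that rose in SvbACT. It had 86, 19 and 2 counts in SvbACT (14.2, 4.51 and 0.379 CPM), none in any control library, 8, 0 and 5 in the knockdown-labelled libraries and 1, 0 and 0 in SvbREP. The ranges of SvbACT and control did not overlap, nor did those of SvbACT and SvbREP, although SvbACT replicate 3 lay under the floor of 3 counts. SvbACT lay above without overlap for 10.2% of tested genes against control and 10.7% against SvbREP. Against a floor of 3 counts per control library, the SvbACT mean of 6.38 ± 7.12 CPM was at least 9.54-fold higher than control, and the test passed (adjusted p 0.041). SvbACT also exceeded SvbREP (adjusted p 0.0466), with 107 counts against 1, a depth-scaled ratio of 114.7 (95% counting interval 20.1 to 4571). In both comparisons NPF was the single called member among 7 tested, beside 4.46% of all tested genes called against control (1.91% higher) and 7.21% against SvbREP (3.53% higher). Both calls were lost when any single replicate other than SvbACT replicate 3 was left out, with adjusted p of 0.0705 to 0.147 against control and 0.0749 to 0.201 against SvbREP. With robust estimation off the second gave 0.0517, and in fits of only 2 groups NPF did not pass the filter. The authors' deposited table calls NPF higher in SvbACT in both comparisons.

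AstC (FBgn0032336, 2L from 11076165 to 11081399, minus strand) encodes allatostatin C, a peptide related to somatostatin, and was the most widely detected peptide gene, with more than 3 counts in 9 libraries. It had 6, 32 and 13 counts in control, 2, 61 and 4 in the knockdown-labelled libraries, 52, 0 and 31 in SvbACT and 4, 34 and 0 in SvbREP. Means were 3.20 ± 1.53, 3.75 ± 5.41, 4.83 ± 4.40 and 1.63 ± 2.32 CPM (SD, n = 3 each) in that order, and all groups overlapped. No comparison came near the threshold, the smallest adjusted p being 0.647.

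AstA (FBgn0015591, 3R from 24760530 to 24765071, minus strand), the allatostatin A gene, was present at 34 counts in control replicate 2 and 31 in SvbREP replicate 2 and at 3 counts or fewer in each other library. These 2 libraries were also among those with most AstC. AstA was left out by the filter, and without it no comparison passed (smallest adjusted p 0.242).

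The CCHamide genes differed from each other. CCHa1 (FBgn0038199, 3R from 14092504 to 14096835, minus strand) had 3, 21 and 18 counts in the knockdown-labelled libraries and none in any SvbACT library, with 0, 19 and 2 in control and 4, 4 and 0 in SvbREP. The knockdown-labelled range lay above that of SvbACT and SvbREP and overlapped control. Of all tested genes, 13.9% lay apart in this direction for SvbACT and 13.6% for SvbREP. The knockdown-labelled mean of 2.41 ± 1.31 CPM (SD, n = 3) was at least 4.07-fold higher than SvbACT at the floor of 3 counts per library. This was the single call among 7 tested members in that comparison (adjusted p 0.0485), beside 8.24% of all tested genes (2.38% lower in SvbACT). It was lost when any of the 6 replicates was left out (adjusted p 0.0716 to 0.122), and with the replicate block (0.0506) or no filter (0.0516). The authors' deposited table calls it lower as well.

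CCHa2 (FBgn0038147, 3R from 13389059 to 13395197, minus strand), whose peptide is known in flies as a nutrient-responsive hormone, reached 20 counts in SvbREP replicate 2 and 12 in SvbACT replicate 1 and at most 6 in any other library. All groups overlapped, and its smallest adjusted p was 0.853. Mip (FBgn0036713, 3L from 17344947 to 17349666, minus strand), which encodes the myoinhibitory peptides, had 8 counts in SvbACT replicate 1 and none in the other 11 libraries.

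amon (FBgn0023179, 3R from 26697697 to 26714159, minus strand), the convertase gene, was highest in SvbACT. It had 28, 8 and 14 counts there, 0, 2 and 5 in control, 1, 14 and 2 in the knockdown-labelled libraries and 3, 0 and 0 in SvbREP. The 3 SvbACT libraries (1.90 to 4.64 CPM) lay above all control (0 to 1.40 CPM) and SvbREP (0 to 0.456 CPM) libraries, and overlapped the knockdown-labelled ones (0.314 to 2.29 CPM). Its log2 difference of 3.94 ± 1.47 between SvbACT and SvbREP missed the threshold (adjusted p 0.134), as did the 2.5 ± 1.33 between SvbACT and control (adjusted p 0.368). Ranges did not overlap in the same direction for 10.2% of tested genes against control and 10.7% against SvbREP. No member was lower in SvbACT than in SvbREP without overlap (10.1% of tested genes), and none lay apart between SvbREP and control, where 7.18% of tested genes were higher and 11.3% lower.

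**Figure D4:**
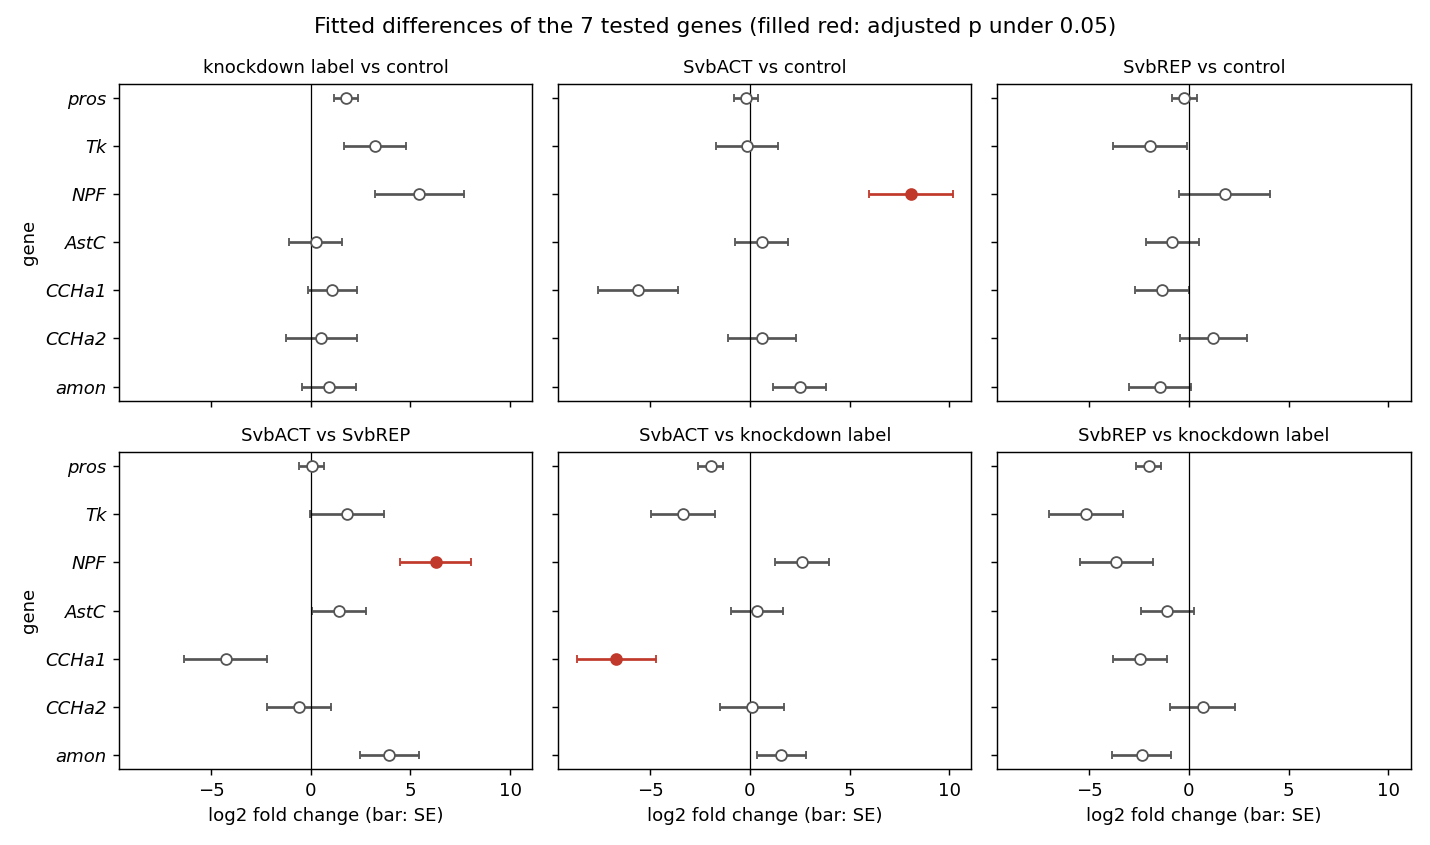
Log2 fold changes (x axis, points) with SE (bars) of the 7 tested genes (y axis) in the 6 comparisons, filled red where the adjusted p was under 0.05. NPF in SvbACT against control and against SvbREP, and CCHa1 in SvbACT against the knockdown-labelled group, are the filled points, and the bars of pros are the shortest.

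No member was called between the knockdown-labelled group and control, where 8.5% of tested genes were called, between SvbREP and control (2.08%) or between SvbREP and the knockdown-labelled group (8.7%). At an unadjusted p under 0.05 there were 2, 0 and 2 of the 7 tested members, beside 19.0%, 12.9% and 21.5% of tested genes. DESeq2 called 1, 0 and 1 members, pros in both cases, and 906, 321 and 984 of all 8069 genes. For SvbREP and control, the alternative fit with the replicate block called 290 genes instead of the 168 of the main fit, and still no member. All 7 fitted differences between the knockdown-labelled group and control were above 0 (median 1.09, against 0.02 over all tested genes). Between SvbREP and control, 5 of the 7 were below 0 (median -0.82, against -0.02). These counts and medians rest on genes that passed the filter and do not include AstA, Dh31 and Mip. The shared direction under the knockdown label did not extend to all 10 genes. In the fit without the filter, AstA went the other way between the knockdown-labelled group and control (log2 difference -3.21, adjusted p 0.358). Dh31 was above 0 there (4.5, adjusted p 0.0833), and Mip, with no counts in either group, was at 0.

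The errors set what could be seen. The median SE of the members' log2 differences was 1.34 between the knockdown-labelled group and control, compared with 0.36 over all tested genes. The biological coefficient of variation between replicates was 138% for Tk, 121% for CCHa2, 109% for AstC and 101% for NPF, and 50.6%, 78.5%, 64.8% and 73.1% on the trend for genes of the same level. pros (49.4%), CCHa1 (82%) and amon (83.1%) lay close to their trend of 45.9%, 77.2% and 76.6%.

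Levels of different genes were compared per kilobase of exon. On this scale the mean over 12 libraries was highest for Tk (3.85 CPM per kb), followed by NPF (3.14), AstC (2.79), Dh31 (1.84), CCHa1 (1.12), AstA (0.60), CCHa2 (0.472), pros (0.34), amon (0.297) and Mip (0.0791). The first places of Tk and NPF rest on single libraries, knockdown-labelled replicate 3 and SvbACT replicate 1, which hold 72.0% and 71.1% of their counts. By the median over libraries AstC led (2.13 CPM per kb), with Tk at 0.652 and NPF at 0.127. The value for pros depends on its annotated exons of 24892 bases, of which 5592 are coding. Per kilobase of coding sequence AstC came first (9.16), with pros at 1.51. The SD over libraries was larger than the mean for 9 of the 10 genes, pros being the exception, so neighbours in this order did not differ beyond their spread.

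Other genes of peptide processing and dense core vesicles were examined as a list of 22, of which 20 had a row and 17, amon included, were tested. All calls of this list in comparisons with control were lower, 2 lower and 0 higher under the knockdown label and in SvbACT and 1 lower in SvbREP (background 6.66%, 2.55% and 1.35% called lower). The list's median log2 differences of 0.07, 0.02 and -0.04 lay beside 0.02, -0.01 and -0.02 over all tested genes. The called genes were genes of vesicle transport and fusion rather than of peptide cleavage. unc-104 (FBgn0267002), which encodes a kinesin motor that carries vesicle precursors, went from 1811 ± 627 CPM in control to 210 ± 34.6 in the knockdown-labelled group (log2 fold change -3.11 ± 0.41, adjusted p 0.00025) and 356 ± 226 in SvbACT (-2.35 ± 0.39, adjusted p 0.00312). In SvbREP it was 1183 ± 158 CPM (SD, n = 3 each) and 2.49 ± 0.40 above the knockdown-labelled group on the log2 scale (adjusted p 0.00108). The fit of only SvbACT and control gave 0.0535. Against SvbREP, SvbACT was lower by 1.73 ± 0.38 (adjusted p 0.0138), which rose to 0.0565 without SvbACT replicate 2 and 0.0572 without SvbREP replicate 3. unc-104 shares 168 exon bases with CG42392. Syt4, a synaptotagmin gene, was the other called gene and was lower than control in all 3 comparisons (adjusted p 0.000107 to 0.0008), from 38.5 ± 1.30 CPM to group means of at most 0.736 CPM.

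The convertases of the furin family moved between other groups. Fur1 was lower in SvbACT than in SvbREP, at 10.2 ± 5.46 and 44.3 ± 6.80 CPM (SD, n = 3 each; log2 fold change -2.10 ± 0.40, adjusted p 0.00294), in a comparison where 3.68% of tested genes were called lower. Fur2 was higher in SvbREP than in the knockdown-labelled group by 0.81 ± 0.23 (adjusted p 0.0372), where 5.68% of tested genes were called higher. A fit of only these groups lost this call (0.109), as did leaving out SvbREP replicate 2 or 3 or knockdown-labelled replicate 2 or 3 (0.093 to 0.196). Phm, which encodes an enzyme of peptide amidation, was at 80.1 ± 3.36 CPM in control and 51.6 ± 6.81 in the knockdown-labelled group and was not called (adjusted p 0.0955). 7B2, the chaperone gene of the PC2 convertase, had at most 7 counts in any library.

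IA-2 (FBgn0031294, 2L from 1008378 to 1048053), which encodes a transmembrane protein of dense core vesicles, was the gene outside the 10 whose log2 CPM over the 12 libraries was most like that of Tk (Pearson r 0.88, a description over libraries that share depth and preparation). It had 52, 199 and 868 counts in the knockdown-labelled libraries, 10, 177 and 31 in control, 95, 34 and 109 in SvbACT and 40, 75 and 19 in SvbREP. As for Tk, the highest value was in knockdown-labelled replicate 3 (137.9 CPM). Unlike for Tk, the knockdown-labelled range (16.3 to 137.9 CPM) lay above that of SvbREP (6.07 to 9.47 CPM), as for 13.6% of tested genes. It overlapped those of control and SvbACT. The log2 difference of 2.35 ± 0.83 between the knockdown-labelled group and control did not pass (adjusted p 0.125). nrv3, a sodium pump subunit gene expressed in neurons and enteroendocrine cells, had another order, with 38.5 ± 5.55 CPM in SvbACT and 4.51 ± 0.96 in control (log2 fold change 3.07 ± 0.55, adjusted p 0.00297). The summed level of all 15 enteroendocrine markers, the 10 genes included, was 89.9 to 140 CPM in control, 111 to 303 in the knockdown-labelled group, 131 to 162 in SvbACT and 84.5 to 128 in SvbREP. In control most of this sum came from Phm (80.1 ± 3.36 CPM, SD, n = 3), which was at 51.6 ± 6.81 CPM in the knockdown-labelled group. The 303 CPM of knockdown-labelled replicate 3 included IA-2 at 137.9 CPM and Tk at 53.1 CPM. The part of this sum in the results on single genes was not tested.

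The genes most like pros over the libraries were babo (Pearson r 0.921), which encodes a type I receptor for activins, Creld (0.898) and Rpn8 (0.893), a proteasome subunit gene. For AstC, the most abundant member in CPM after pros and Tk, they were CG5280 (0.894), CG16865 (0.829) and Cap-G (0.828). These are the highest of 8069 values over 12 libraries and are given as a description.

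**Figure D5:**
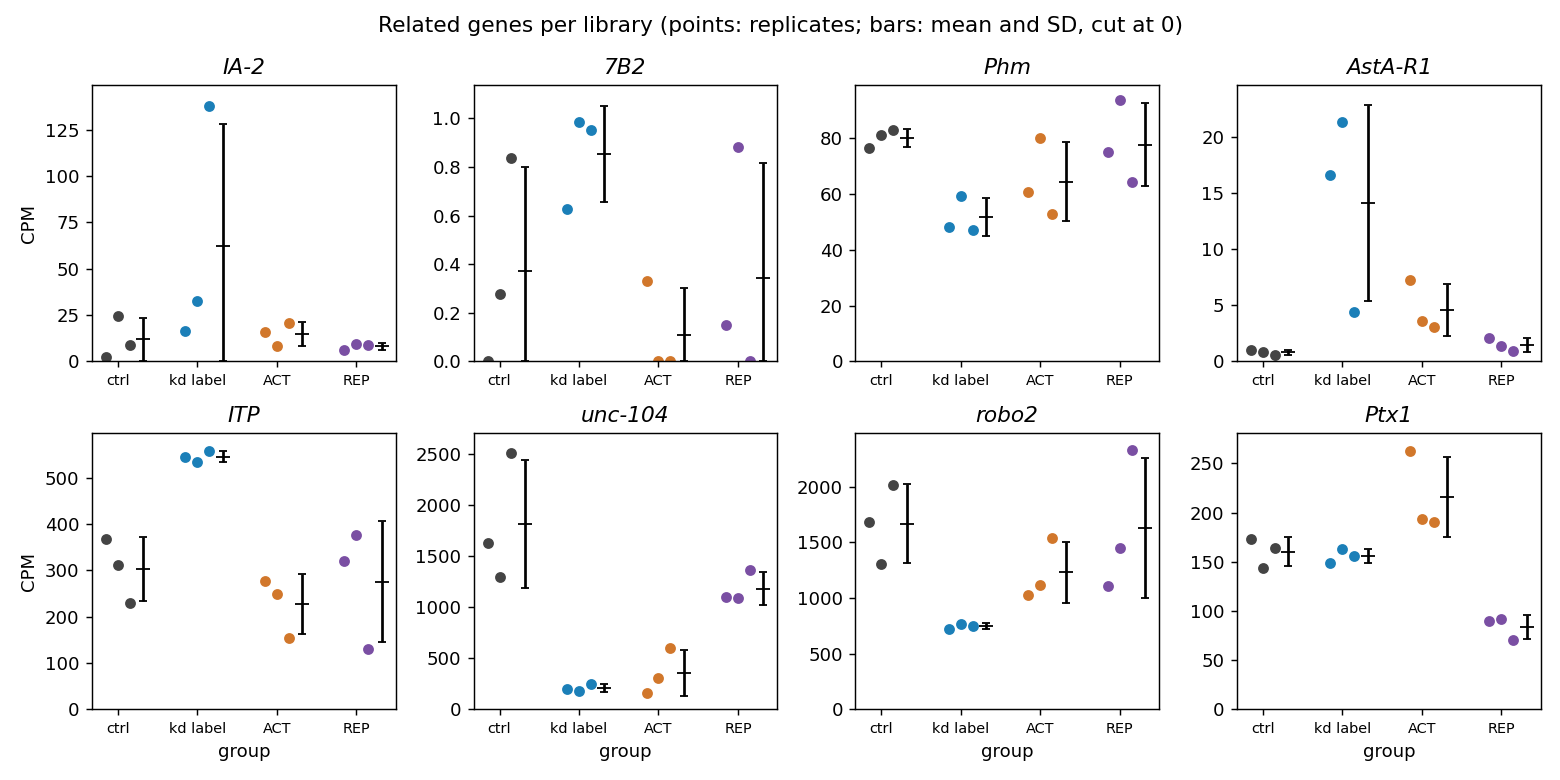
Level in CPM (y axis, linear, a scale for each gene) of 8 related genes by group (x axis), with points for the 3 replicates and a bar for the mean and SD, cut at 0. unc-104 is low in the knockdown-labelled and SvbACT libraries, AstA-R1 is highest in the knockdown-labelled ones, and IA-2 has a single high library at 137.9 CPM.

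Among 11 receptor genes of these peptides, 7 had a row and 2 were tested, AstA-R1 and SPR, the receptor of sex peptide and of the myoinhibitory peptides. AstA-R1 (FBgn0266429, X from 3574536 to 3666724, plus strand), a receptor of allatostatin A, rose under the knockdown label. It had 4, 6 and 2 counts in control, 53, 130 and 28 in the knockdown-labelled libraries, 44, 15 and 16 in SvbACT and 14, 11 and 2 in SvbREP. The knockdown-labelled range of 4.45 to 21.3 CPM lay above those of control (0.558 to 0.998) and SvbREP (0.934 to 2.13). It overlapped that of SvbACT (3.03 to 7.29). Ranges lay apart in this direction for 13.9% of tested genes against control and 13.6% against SvbREP. The log2 fold change over control was 4.09 ± 0.75 (adjusted p 0.00157), and it passed in all 12 alternatives. In that comparison 1.85% of tested genes were called higher. SvbREP was below the knockdown-labelled group by 3.17 ± 0.70 on that scale (adjusted p 0.00728), where 3.02% of tested genes were called lower. Without knockdown-labelled replicate 2 this gave 0.0603. The SvbACT range also lay above that of control, as for 10.2% of tested genes. SvbACT against control gave 2.49 ± 0.73 with an adjusted p of 0.0659.

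Of 19 other peptide hormone genes 3 had a row, and ITP and Orcokinin were tested. ITP (FBgn0035023), which encodes an antidiuretic ion transport peptide, was at 302.9 ± 68.5 CPM in control, 545 ± 12 in the knockdown-labelled group, 227 ± 64.7 in SvbACT and 276 ± 129.9 in SvbREP (SD, n = 3 each). The 3 knockdown-labelled libraries (534 to 558 CPM) lay above all 9 others (at most 377 CPM). Ranges lay apart in this direction for 13.9% of tested genes against control, 13.9% against SvbACT and 13.6% against SvbREP. SvbACT was lower than the knockdown-labelled group by 1.27 ± 0.32 in log2 units (adjusted p 0.023, and 0.00114 to 0.0859 over alternatives), a call lost without SvbACT replicate 2 or 3 or any knockdown-labelled replicate. The difference from control missed the threshold (0.85 ± 0.32, adjusted p 0.14). ITP shares 296 exon bases with CG4622.

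Orcokinin (FBgn0034935), the gene of another gut peptide hormone, had 80, 14 and 12 counts in SvbACT, 3, 81 and 1 in the knockdown-labelled libraries and 0, 4 and 0 in both control and SvbREP. As for NPF and amon, each SvbACT library (2.27 to 13.3 CPM) lay above all control and SvbREP libraries (at most 0.558 CPM). The same held for 10.2% of tested genes against control and 10.7% against SvbREP. The log2 difference was 4.6 ± 1.56 between SvbACT and control (adjusted p 0.12) and 4.71 ± 1.57 between SvbACT and SvbREP (adjusted p 0.0893), and neither passed. Orcokinin was picked from the list after its values were seen.

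Regulators of the secretory lineage were a list of 20 genes with an identifier, of which 16 had a row and 10 were tested. Against control, 1 was called lower under the knockdown label (robo2), none in SvbACT and 1 lower in SvbREP (Ptx1), beside 6.66%, 2.55% and 1.35% of all tested genes called lower. The list's median log2 differences were 0.03, -0.12 and -0.20, beside 0.02, -0.01 and -0.02 over all tested genes. robo2, the progenitor receptor for Slit that is known to limit enteroendocrine production, was at 1669 ± 357 CPM in control and 749 ± 23.5 in the knockdown-labelled group (log2 fold change -1.16 ± 0.26, adjusted p 0.00675; SD, n = 3 each), or 0.0619 without control replicate 3. SvbREP, at 1631 ± 629 CPM, lay 1.12 ± 0.26 above the knockdown-labelled group on the log2 scale (adjusted p 0.00881). robo2 shares 1422 exon bases with asRNA:CR44897 and 1241 with lncRNA:CR44898, so its level is uncertain to that extent.

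Ptx1, a homeodomain factor of enteroendocrine cells, moved between the Svb forms. It was at 216 ± 40.8 CPM in SvbACT, 84.0 ± 12.1 in SvbREP, 160 ± 15.1 in control and 156 ± 6.84 in the knockdown-labelled group (SD, n = 3 each). SvbREP libraries (70.0 to 91.9 CPM) lay below all others (at least 143.7 CPM). Ranges lay apart in this direction for 11.3% of tested genes against control, 10.7% against SvbACT and 13.6% against the knockdown-labelled group. SvbACT exceeded SvbREP by 1.36 ± 0.19 in log2 units (adjusted p 0.000196), and SvbREP fell by 0.93 ± 0.19 against control (adjusted p 0.0141, but 0.07 in a fit of only these groups and 0.0615 to 0.118 without SvbREP replicate 2 or control replicate 1 or 3) and by 0.89 ± 0.19 against the knockdown-labelled group (adjusted p 0.00598). numb, an inhibitor of Notch, was higher in SvbACT than in SvbREP by 0.83 ± 0.19 (adjusted p 0.0117), which missed the threshold with only these groups in the fit (0.0767), without SvbACT replicate 1 (0.0725) and without SvbREP replicate 2 (0.0573). It was also higher in SvbACT than in the knockdown-labelled group by 0.65 ± 0.19 (adjusted p 0.0398, background 5.86% higher), a call lost without any of the 6 replicates and with no filter. lola was lower in SvbREP than in the knockdown-labelled group by 0.75 ± 0.22 (adjusted p 0.0392), but this gave 0.12 with only these groups and 0.0773 to 0.143 without SvbREP replicate 2 or 3 or knockdown-labelled replicate 1 or 3. The proneural gene sc had 161 and 89 counts in SvbREP replicates 1 and 2 and 0 in replicate 3, with at most 42 elsewhere, and was not called in any comparison (smallest adjusted p 0.275). tap, a neurogenin relative, had 9 counts in SvbACT replicate 3, 1 in control replicate 1 and none in the other libraries.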

How the data were processed

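RNA was measured in 12 libraries of sorted enteroblasts, 3 per group. The deposited values are unnormalized read counts of each gene, and the submitters' processing notes name STAR 2.5.2b, HTSeq 0.6.0, FastQC 0.11.5, edgeR and dm6 without parameters. The log2 fold changes, p-values and calls (a score of 1, 0 or -1) in the table are the authors' own, per the file headers, and were only compared. Counts were analysed with edgeR 4.0.16 in R 4.3.3: filterByExpr (minimum count 10), TMM scaling, a robust quasi-likelihood fit of 1 mean per group to all libraries, and 6 pairwise comparisons, adjusted by Benjamini-Hochberg over 8069 genes with a threshold of 0.05. The SE was the log2 fold change divided by the square root of F. Alternatives included DESeq2 1.42.0. The pipeline was tested on simulated data. Symbols, positions and exon lengths came from BDGP6.54 of Ensembl release 115, which has dm6 coordinates. The floor was 3 counts.

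Members and lists were chosen with earlier results of these data known. Named genes were the 10 members, up to 3 called genes per list, comparison and direction, and for pros, Tk and AstC the 3 other genes with the highest Pearson r. IA-2, Orcokinin, 7B2, Phm, nrv3, sc and tap were picked from the lists or markers after their values were seen. Replicates come from separate days, per the labels. The labels do not say that a number means the same day in all groups. Deviations of same-numbered libraries correlated by 0.175, 0.108 and 0.256 for SvbREP and control. They correlated by 0.232, 0.148 and 0.062 for the knockdown-labelled group and control, and by 0.0717, 0.0186 and 0.106 for SvbACT and control. SvbACT and the knockdown-labelled group gave 0.0105, 0.0923 and 0.0201. SvbACT and SvbREP gave 0.299, the highest value, -0.0174 and 0.131. SvbREP and the knockdown-labelled group gave -0.00696, 0.0616 and -0.0437. The main fit had no block, and the replicate block was an alternative in all comparisons.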

Additional observations from a re-analysis of the deposited data

How the results depend on the processing

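Of the members' fitted differences with an unadjusted p under 0.05, none changed direction under any alternative; 87 alternative values stayed on the same side of the threshold, 19 lost a call and 8 gained one. For the called genes of the other lists, whose alternatives were added after their values were seen, 206 kept the call and 34 lost it, again with no change of direction. The number of members called (1 in SvbACT against control, SvbREP and the knockdown-labelled group, otherwise 0) went to 0 in these 3 comparisons when the other groups were dropped, since NPF and CCHa1 then did not pass the filter, and to 0 for SvbACT against SvbREP with robust estimation off. DESeq2 called 2 for SvbACT against the knockdown-labelled group, beside 994 of all genes. It called 1 for SvbREP against the knockdown-labelled group (984 of all genes) and 1 for the knockdown-labelled group against control (906). SvbREP against the knockdown-labelled group also gave 1 with no filter (Dh31), with only these groups (pros) and with the replicate block (pros), and the knockdown-labelled group against control gave 1 with only these groups (pros). With the replicate block, SvbACT against the knockdown-labelled group still had 1 call, but of pros in place of CCHa1. Leaving out 1 replicate gave 0 to 1 members in the 3 comparisons of SvbACT and in the knockdown-labelled group against control, 0 to 2 in SvbREP against the knockdown-labelled group and 0 in SvbREP against control.

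Over all genes, only the groups compared gave 340 calls for SvbACT against SvbREP (582 with all libraries) and 1091 for the knockdown-labelled group against control (686). DESeq2 gave 616 for SvbACT against control (360) and 321 for SvbREP against control (168), for which the replicate block gave 290. Leaving out 1 replicate gave 355 to 599 for SvbACT against SvbREP, 175 to 279 for SvbACT against control, 453 to 687 for SvbACT against the knockdown-labelled group, 54 to 242 for SvbREP against control, 407 to 904 for SvbREP against the knockdown-labelled group and 407 to 549 for the knockdown-labelled group against control. The cause of the other shifts was not tested. At a floor of 0.379 to 1.40 CPM, a peptide gene with 0 counts was not detectable rather than absent.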
